A study of Mus musculus with 2 samples.

Results

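The 10 genes described here, called members, are epithelial keratins, junction genes and regulators. They are Epcam, Cdh1, Krt8, Krt18, Krt5, Krt14, Trp63, Grhl2, Esrp1 and Cldn6, and they were listed by name out of 21937 gene features. All 10 were present in the matrices. They were followed by annotated cell type and by cell suspension, mainly in the 151 cells annotated Epithelial Cell, to set surface ectoderm beside simple epithelium. Whole mouse embryos at E11.5 carrying an EGFP transgene linked to a DNA barcode had been dissociated, and single cells were sequenced with a 3′ droplet chemistry that counts unique molecular identifiers (UMIs). Founder embryos F0_8 and F0_9 had received the CAG-driven transgene by piggyBac transposition as fertilized eggs. F1_1 was a single F1 embryo. F1_mix pooled cells from 2 further F1 embryos as a made-up mosaic. Every embryo carried the transgene, a founder can be a mosaic of integrations, and no embryo without the transgene was part of the comparison. All 4 suspensions were tagged with oligos, pooled and run as 1 droplet library, so the comparison of generations rests on 2 suspensions against 2 and on embryos that were each sampled once. The data can test whether a member differs between founder and F1 embryos beyond the spread between suspensions.

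An epithelium is a sheet of cells held together by junctions and stiffened by keratins, which form filaments as pairs of a type I and a type II chain. Krt8 pairs with Krt18 in simple, single-layered epithelia such as gut and duct linings, and Krt5 pairs with Krt14 in the basal layer of stratified epithelia such as skin. At mid-gestation the surface ectoderm is turning from a simple into a stratifying epithelium under the transcription factor p63 (Trp63). Cdh1 encodes E-cadherin, the adhesion molecule of adherens junctions, Epcam encodes a further epithelial adhesion molecule, and Cldn6 encodes a tight junction claudin of embryonic epithelia. Grhl2 is a Grainyhead-family transcription factor that maintains epithelial identity, and Esrp1 is an RNA-binding protein that sets epithelial splicing patterns.

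On GRCm38.p6, the annotation used for positions, Krt5 (chr15:101707069-101712905), Krt8 (chr15:101996711-102004342), Krt18 (chr15:102028216-102032026) and Grhl2 (chr15:37232821-37363569) lie on chromosome 15. Krt8 and Krt18 are neighbours with 23873 bases between them. Krt14 (chr11:100203162-100207510) lies on chromosome 11, Epcam (chr17:87635979-87651127) and Cldn6 (chr17:23679348-23682446) on chromosome 17, Cdh1 (chr8:106603350-106670247) on chromosome 8, Trp63 (chr16:25683763-25892088) on chromosome 16 and Esrp1 (chr4:11331933-11386783) on chromosome 4.

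The 250 bases upstream of the annotated start are shown for 5 members, because each holds a motif of the Snail and Zeb repressors whose RNA levels are given further on. The sequences come from the RefSeq promoter table of GRCm38.p6, which matched 6 of the 10 members and has no entry for Cdh1, Trp63, Grhl2 and Esrp1. Capitals mark the E2-box CACCTG or its reverse complement CAGGTG, the motif that Snail and Zeb repressors are known to bind. The windows are chr17:87635729-87635978 (plus strand), chr15:102004343-102004592 (minus strand), chr15:102027966-102028215 (plus strand), chr15:101712906-101713155 (minus strand) and chr17:23679115-23679364 (plus strand, its last 17 bases inside the annotated gene), each written 5′ to 3′ in the direction of the gene.
Epcam: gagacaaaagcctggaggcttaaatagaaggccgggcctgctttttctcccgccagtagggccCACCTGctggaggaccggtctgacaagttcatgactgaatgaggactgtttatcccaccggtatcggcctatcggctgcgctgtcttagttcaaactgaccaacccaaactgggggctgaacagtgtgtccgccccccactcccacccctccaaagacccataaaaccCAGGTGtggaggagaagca
Krt8: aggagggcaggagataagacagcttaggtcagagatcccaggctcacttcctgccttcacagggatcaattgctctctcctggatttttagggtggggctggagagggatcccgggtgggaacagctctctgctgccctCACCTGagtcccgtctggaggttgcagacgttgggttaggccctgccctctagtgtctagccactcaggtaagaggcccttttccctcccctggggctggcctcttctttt
Krt18: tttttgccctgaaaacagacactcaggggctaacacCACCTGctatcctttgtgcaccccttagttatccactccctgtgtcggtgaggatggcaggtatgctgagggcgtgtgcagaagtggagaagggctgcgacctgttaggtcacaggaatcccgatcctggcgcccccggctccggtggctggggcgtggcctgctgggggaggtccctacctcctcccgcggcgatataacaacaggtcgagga
Krt5: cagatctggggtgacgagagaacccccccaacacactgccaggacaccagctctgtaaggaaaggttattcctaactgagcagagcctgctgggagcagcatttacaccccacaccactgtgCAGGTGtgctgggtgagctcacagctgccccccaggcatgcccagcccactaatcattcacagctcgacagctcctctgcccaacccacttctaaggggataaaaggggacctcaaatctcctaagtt
Cldn6: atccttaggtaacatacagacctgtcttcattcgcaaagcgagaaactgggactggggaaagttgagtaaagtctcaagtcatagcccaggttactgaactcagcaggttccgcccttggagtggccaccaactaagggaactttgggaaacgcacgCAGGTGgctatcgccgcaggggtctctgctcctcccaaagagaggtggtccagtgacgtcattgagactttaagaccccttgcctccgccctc
The motif begins 187 and 19 bases upstream of the start in Epcam, 111 in Krt8, 214 in Krt18, 128 in Krt5 and 93 in Cldn6. Of the 6 matched windows, 5 held it, against 17.2% of all 32851 upstream windows of the same length. The sixth window, that of Krt14, had no match, but its start lies 1480 bases inside the annotated gene and it is not shown. Searched on both strands in the same windows, GGGCGG (the GC box) was found in 2 of 6 against 32.7% of all windows, and GCCNNNGGC (AP-2) in 1 of 6 against 13.7%. The Grainyhead motif AACCNGTT was found in 0 of 6 against 1.79% of all windows. The start-site motif TATAAA was found in 0 against 12.4%. The p63 core ACATGT was found in 0 against 4.58%. The motifs were chosen with the members in view, and a match is a description of letters, not a bound site.

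The 5678 annotated cells fell into 16 types, with 68972620 gene UMIs in all. Depth per suspension was 16052917 to 19160116 gene UMIs, and the suspensions shared 0 cell barcodes. Of the 16 types, 4 (Endodermal Progenitor, Foregut, Hepatocyte and Midgut) were shallow, at a median of 1138 gene UMIs per cell and 27.8% of UMIs from mitochondrial genes. The other 12 types, at a median of 14161, are called deep. Epithelial Cell was deep, with a median of 16938 gene UMIs per cell, 2.41% of UMIs mitochondrial and 2579848 gene UMIs in total. Founders F0_8 and F0_9 gave 29 and 34 of its cells, F1_1 gave 53 and F1_mix 35. Values below are levels, that is UMIs summed over cells per 10000 gene UMIs, with exact Poisson 95% intervals, and shares of cells with at least 1 UMI, with exact Clopper-Pearson 95% intervals. Both intervals cover counting error only. Members were not compared with each other in level, since capture at the 3′ end differs between transcripts. Krt8 has an annotated pseudogene, Krt8-ps, and any reads shared with it cannot be told apart here.

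The label Epithelial Cell matched its content. Of its 151 cells, 136 (90.1%, 84.1 to 94.3) held UMIs of at least 5 members and 0 held none, with a median of 7 members per cell. Among markers of other cell types, 4 endothelial genes summed to 0.0271 UMIs per 10000 there, 4 macrophage genes to 0.0194 and 5 muscle genes to 0.0233. Higher sums came from 6 neural genes (1.55, from 399 UMIs), 6 red blood cell genes (0.705) and 6 mesenchyme genes (0.601), and their part in the values below was not tested. The cells were annotated by clustering on their expression, so the levels by type describe the annotation and were not tested.

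All 10 members had their highest level among the deep types in Epithelial Cell, in the pooled cells and in each of the 4 suspensions. Over all 13060 genes with at least 100 UMIs in the deep types, 7.22% had their highest level there. The distance to the other types was not the same for each member, and it was shortest for the simple keratins. The median log2 ratio of the level in Epithelial Cell to that in the other deep types was 6.36 over the 10 members and −0.03 over all genes.

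**Figure D1:**
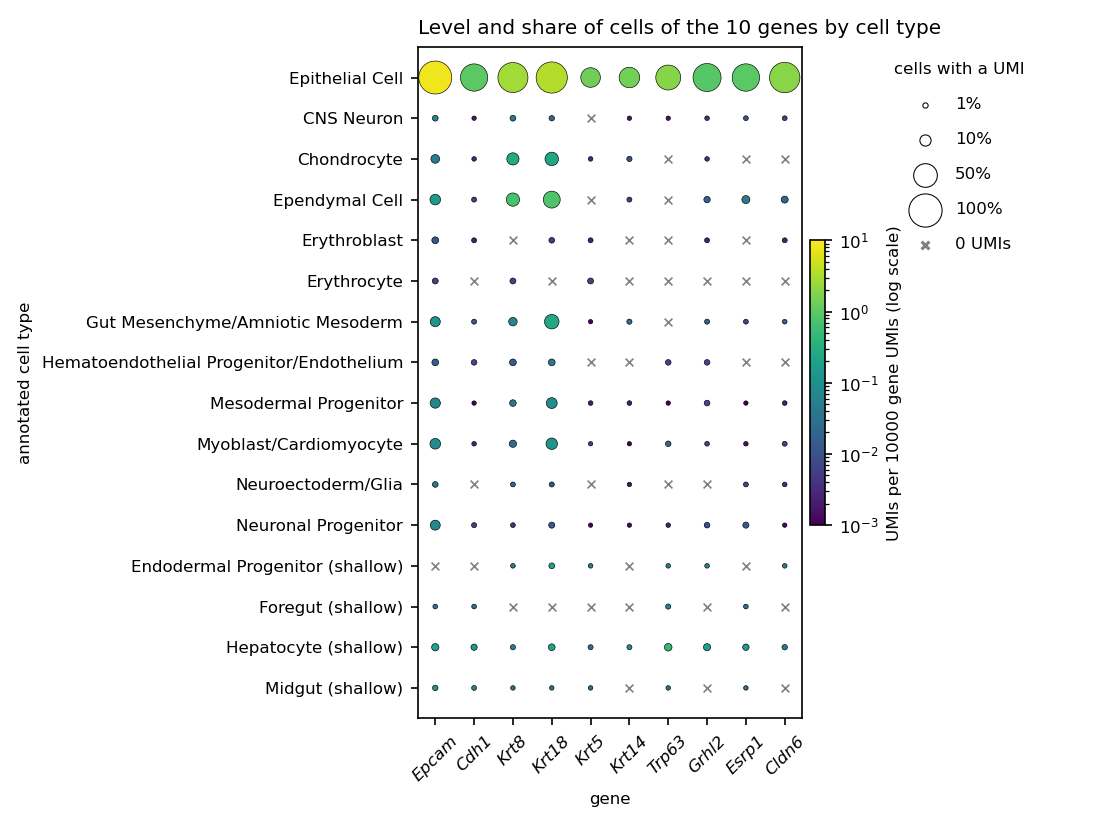
Level (colour, UMIs per 10000 gene UMIs on a log scale) and share of cells with a UMI (dot area) of the 10 members in the 16 annotated types, pooled over the 4 suspensions; crosses mark 0 UMIs. Epithelial Cell forms the row of large dots at the top, and of the other deep types Ependymal Cell and Chondrocyte show visible Krt8 and Krt18.

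Among the adhesion and junction genes, Epcam marked nearly every cell. Its level in Epithelial Cell was 7.09 UMIs per 10000 (F0_8), 9.67 (F0_9), 8.28 (F1_1) and 7.96 (F1_mix), with a mean of 8.25 ± 1.07 (SD, n = 4 suspensions). The lowest and the highest value were both from founders, and the F1 values lay between them. Cdh1, encoding E-cadherin, was at 0.924, 1.13, 1.02 and 0.774 UMIs per 10000 in the same order. Cldn6 was at 1.57, 2.23, 2.05 and 1.84. In neither gene did the founder and the F1 suspensions separate. The next deep type was Ependymal Cell for Epcam (0.143, 0.0931 to 0.209) and Cldn6 (0.0219, 0.00597 to 0.0561), and Gut Mesenchyme/Amniotic Mesoderm for Cdh1 (0.0121, 0.00606 to 0.0217). Epithelial Cell held 82.4% of all Epcam UMIs of the deep types, 90.9% of those of Cdh1 and 93.5% of those of Cldn6.

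The simple keratins were present in most epithelial cells. Krt8 stood at 1.87 UMIs per 10000 (F0_8), 3.68 (F0_9), 2.97 (F1_1) and 2.29 (F1_mix) (mean 2.70 ± 0.796, SD, n = 4). Krt18, its partner chain, stood at 2.27, 4.19, 3.91 and 3.05 (mean 3.35 ± 0.872). Both followed the same order of suspensions, with F0_8 lowest and F0_9 highest. These were also the members least confined to Epithelial Cell: 64.1% of the Krt8 UMIs and 55.5% of the Krt18 UMIs of the deep types lay in it. In Ependymal Cell, the next type, Krt8 reached 0.691 (0.575 to 0.822) and Krt18 0.762 (0.641 to 0.900), so that Epithelial Cell was 3.99-fold and 4.53-fold higher, against at least 21.3-fold for each of the other 8 members.

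The basal keratins varied most between suspensions. Krt5 was at 1.41 UMIs per 10000 (F0_8), 2.01 (F0_9), 1.19 (F1_1) and 0.857 (F1_mix) (mean 1.36 ± 0.485, SD, n = 4). Krt14 was at 2.49, 1.06, 1.54 and 0.659 (mean 1.44 ± 0.788), a 3.78-fold range between the lowest and the highest suspension. F0_8 was thus highest in Krt14 and lowest in Krt8 and Krt18. Trp63, the p63 gene, was at 1.41, 2.55, 1.59 and 2.01 (mean 1.89 ± 0.508). Outside Epithelial Cell these genes were close to 0 in the deep types: Krt5 had 14 UMIs, Krt14 31 and Trp63 33 among the 4158 other deep cells. Epithelial Cell held 96.1%, 92.2% and 93.6% of their UMIs.

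In the regulators Grhl2 and Esrp1, F0_8 lay at opposite ends of the 4 suspensions. Its intervals, 0.937 to 1.57 for Grhl2 and 0.440 to 0.907 for Esrp1, overlap those of every other suspension. Grhl2 was at 1.23 UMIs per 10000 (F0_8), 0.733 (F0_9), 0.809 (F1_1) and 0.807 (F1_mix) (mean 0.894 ± 0.224, SD, n = 4), with F0_8 above the rest. Esrp1 was at 0.643, 1.13, 0.942 and 0.972 (mean 0.923 ± 0.205), with F0_8 below the rest. Among the other deep types each was highest in Ependymal Cell, Grhl2 with 3 UMIs and Esrp1 with 8.

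**Figure D2:**
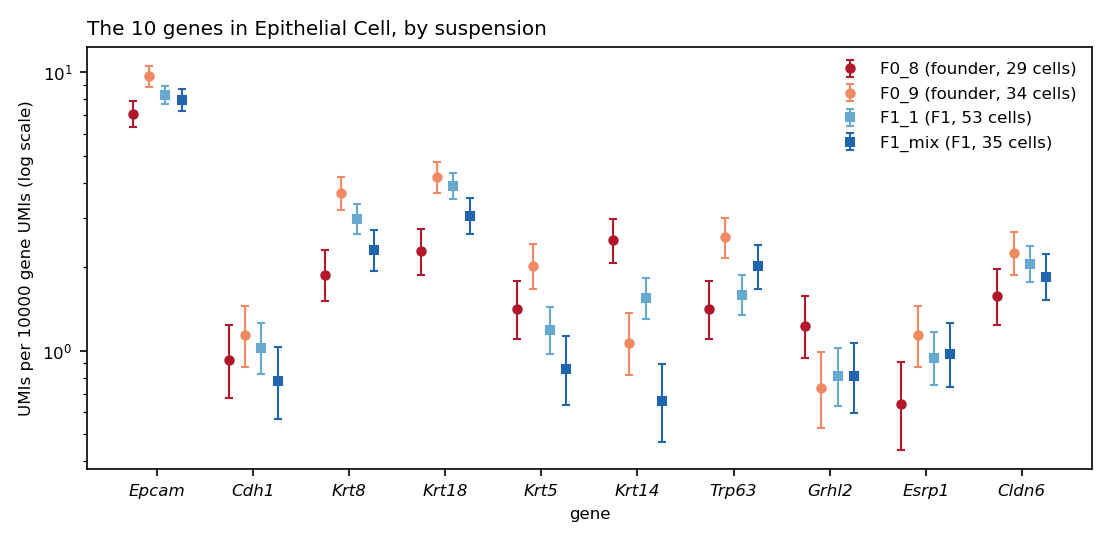
Level of each member in Epithelial Cell (UMIs per 10000 gene UMIs, log scale) in the 4 suspensions, with exact Poisson 95% intervals that cover counting error only; circles are founders and squares F1. The 2 founders are spread as widely as the generations in most members, and Krt5 is the only member whose founders (1.41 and 2.01) both lie above both F1 values (1.19 and 0.857).

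Detection per cell ran from nearly all cells to a minority of them. Epcam had a UMI in 98.7% of the 151 cells (95.3 to 99.8), Krt18 in 88.1% (81.8 to 92.8), Cldn6 in 83.4% (76.5 to 89.0) and Krt8 in 81.5% (74.3 to 87.3). Grhl2 was seen in 70.9%, Esrp1 in 67.5% and Cdh1 in 66.9%. The basal genes were seen in a minority or near it, Trp63 in 55.6% (47.3 to 63.7), Krt14 in 37.1% (29.4 to 45.3) and Krt5 in 33.8% (26.3 to 41.9). Thinned to 5000 gene UMIs per cell, which left out 1 cell, Grhl2 fell to 34.7%, Cdh1 to 40.0% and Cldn6 to 59.3%. Krt5 fell to 26.0%, and its UMIs had a median of 0 and a maximum of 26 per cell. Erythroblasts, which should lack these genes, had a higher median depth (29076 gene UMIs) and gave the background. Epcam was seen in 2.78% of 144 cells, Krt18 in 1.39% and each of Cdh1, Krt5, Grhl2 and Cldn6 in 0.694%. Krt8, Krt14, Trp63 and Esrp1 were seen in 0 cells, which allows a share of up to 2.53%. Every member in Epithelial Cell was far above that background.

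Most cells with a basal keratin also held a simple keratin. Of the 151 cells, 78 (51.7%, 43.4 to 59.9) had UMIs of Krt8 or Krt18 without Krt5 or Krt14, 60 (39.7%, 31.9 to 48.0) had both kinds, 9 (5.96%, 2.76 to 11.01) had basal keratins alone and 4 had neither. Cells with both kinds were thus more numerous than cells with basal keratins alone. At 5000 UMIs per cell the same classes held 86, 36, 20 and 8 of 150 cells. Trp63 was seen in 54 of the 60 cells with both kinds and in 9 of the 9 with basal keratins alone, against 20 of the 78 with simple keratins alone. The share with both kinds was 34.5% (F0_8), 52.9% (F0_9), 34.0% (F1_1) and 40.0% (F1_mix), with overlapping generations.

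Across the 151 cells, partner keratins went together, and the pairs were weakly opposed. On natural-log levels per cell, Pearson's r was 0.70 for Krt8 with Krt18 and 0.59 for Krt5 with Krt14, and 118 cells held both Krt8 and Krt18. Between the pairs, r was −0.15 for Krt8 with Krt5, −0.28 for Krt8 with Krt14, −0.18 for Krt18 with Krt5 and −0.32 for Krt18 with Krt14. Trp63 had r of 0.43 with Krt5 and 0.39 with Krt14, and −0.31 with Krt8 and −0.40 with Krt18. Cldn6 sided with the simple keratins, with r of 0.41 with Krt8, 0.44 with Krt18 and −0.38 with Trp63. Grhl2 had r between −0.06 and 0.13 with the other members. These are descriptions over cells that share 1 library and differ in depth, and no p is given.

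**Figure D3:**
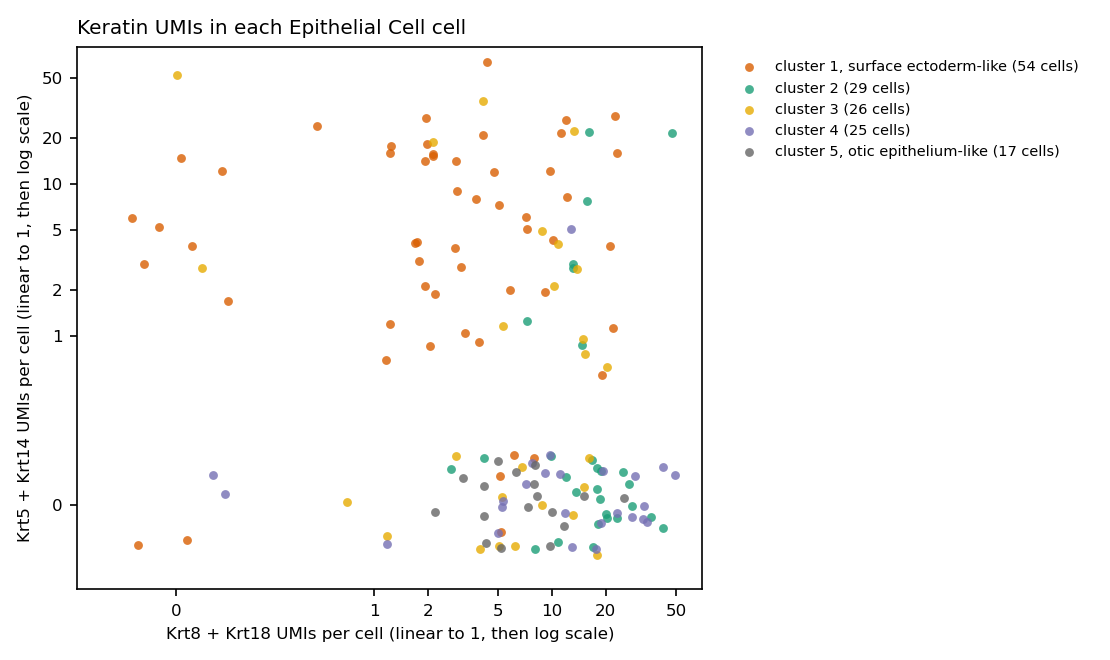
UMIs of the basal keratins (Krt5 and Krt14 summed) against the simple keratins (Krt8 and Krt18 summed) in each of the 151 Epithelial Cell cells, on axes that are linear to 1 and log above, with points shifted by at most 0.3 to part ties and coloured by cluster. Cells of cluster 1 make up most of the upper part, with single cells of clusters 2 and 3 among them, 24 of the 25 cells of cluster 4 and all 17 of cluster 5 lie at 0 basal keratin UMIs, and 4 cells sit at 0 on both axes.

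For 5 of the members (Krt5, Trp63, Krt8, Cldn6 and Cdh1), the 3 genes with the most similar pattern were taken from 10021 other genes seen in at least 10% of the cells. For Krt5 they were Tfap2a (r = 0.61), a surface ectoderm and neural crest transcription factor, the chemokine gene Cxcl14 (0.61) and the actin-binding gene Nebl (0.61). For Trp63 they were the Wnt ligand gene Wnt6 (0.61), the growth factor gene Pdgfa (0.60) and the integrin gene Itgb5 (0.59). For Krt8 they were Cldn3 (0.47), the ribonuclease inhibitor gene Rnh1 (0.44) and Cldn7 (0.43). For Cldn6 all 3 were claudins, Cldn3 (0.56), Cldn7 (0.48) and Cldn4 (0.47). For Cdh1 they included the kinase gene Limk2 (0.43) and Cldn4 (0.43). Each r is over 151 cells.

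When the 151 cells were clustered with the 10 members left out, 5 clusters formed, and every cluster had cells of all 4 suspensions. Cluster 1 (54 cells) was led by Cxcl14, Tfap2b, Wnt3, Hapln1 and Gjb2, and its 11 surface ectoderm markers summed to 21.1 UMIs per 10000 against 4.82 in the other epithelial cells. It is called surface ectoderm-like. Cluster 5 (17 cells), led by Oc90, Hmx2, Cnmd, Lmx1a and Sorcs1, had 31.3 against 0.177 for 6 inner ear markers, and is called otic epithelium-like. Clusters 2 to 4 stay unnamed, because a name needed 1 list with both the highest summed level and the highest fold, and with more markers among the 10 leading genes than any other list. In cluster 2 the 7 olfactory epithelium markers had the highest level and fold (8.85 against 1.88), but they and the neural markers each had 1 leading gene. In cluster 3 the surface ectoderm list had the highest level (10.7 against 9.96) and the pituitary placode list the highest fold (5.68 against 1.64). In cluster 4 the nephric duct list had the highest level (6.66 against 4.15) and the liver list the highest fold (1.27 against 0.0238), and the gut and pharyngeal endoderm list was at 6.49 against 1.04. Cluster 2 (29 cells) was led by Six3, Sult1e1, Ebf2, Aldh1a3 and Stmn2, cluster 3 (26 cells) by genes that include Foxe1, Csmd1, Amot and Dapl1, and cluster 4 (25 cells) by Cym, Cpn1, Rbp4, Galntl6 and Rap1gap2. The clusters rest on genes that vary with the members, so the values that follow are descriptions and were not tested.

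Pooled over suspensions, Trp63 and Krt14 were highest in the surface ectoderm-like cluster and cluster 3, but few cells of cluster 3 carried most of its Krt14. Krt5 was at 3.35 UMIs per 10000 in the surface ectoderm-like cluster (2.97 to 3.77), and at 0.603 in cluster 2, 0.597 in cluster 3, 0.104 in cluster 4 and 0 in the otic epithelium-like cluster. It was highest of the 5 clusters in the surface ectoderm-like cells in 4 of 4 suspensions, at 2.71 (F0_8), 4.53 (F0_9), 3.25 (F1_1) and 2.85 (F1_mix). Trp63 was at nearly the same level in the surface ectoderm-like cluster (3.26, 2.88 to 3.67) and in cluster 3 (3.25, 2.72 to 3.84), and at 0.826, 0.543 and 0 in clusters 2, 4 and 5. Krt14 of the pooled cells was at 2.58 (2.25 to 2.95) and 2.96 (2.46 to 3.53). Of the 26 cells of cluster 3, 24 held Trp63, 13 Krt14 and 4 Krt5. Krt5 in cluster 3 was at 2.13 (F0_8), 0.258 (F0_9), 0.223 (F1_1) and 0 (F1_mix), and F0_8 held 20 of its 25 UMIs. In cluster 2 the 35 Krt5 UMIs lay in 4 cells. F0_9 held 30 of them, and F1_1 and F1_mix held 0. The Krt14 of cluster 3 was uneven, at 5.74, 0.517, 4.09 and 0.974 in F0_8, F0_9, F1_1 and F1_mix. Few cells carried it: of its 124 UMIs, 54 lay in 2 cells of F0_8 and 55 in 4 cells of F1_1.

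The basal genes were not detected in the otic epithelium-like cells. Krt5, Krt14 and Trp63 had 0 UMIs in 17 of 17 cells, which allows a level of up to 0.137 UMIs per 10000 for each. Their simple keratins were present, Krt18 in 17 of 17 cells at 3.24 (2.59 to 3.99) and Krt8 in 14 of 17 at 1.82 (1.35 to 2.41). Cldn6 was at 2.68 (2.09 to 3.37), highest of the clusters in 2 of 4 suspensions and with an interval that overlaps those of clusters 2 (1.82 to 2.60) and 4 (1.68 to 2.52). Cdh1 was lowest of the 5 clusters, at 0.335 (0.153 to 0.635) from 9 UMIs, against 0.861 to 1.24 in the other clusters.

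In the pooled cells the simple keratins were highest in clusters 2 and 4. Krt8 was at 3.79 (3.30 to 4.32) in cluster 2 and 4.13 (3.58 to 4.75) in cluster 4, against 1.57 (1.32 to 1.87) in the surface ectoderm-like cluster. Krt18 was at 5.44 (4.86 to 6.07), 4.74 (4.14 to 5.40) and 1.84 (1.56 to 2.15) in the same order. The order was not the same in each suspension: cluster 4 was highest for Krt8 in 2 of 4 and cluster 2 for Krt18 in 1 of 4, and Krt18 of F0_8 was at 1.07 in cluster 4 against 5.37 in the otic epithelium-like cells. Krt14 had 0 UMIs in the 25 cells of cluster 4, which allows a level of up to 0.0770, and Krt5 was seen in 1 of them. The surface ectoderm-like cells had lower simple keratins, but 41 of the 54 still held both kinds. Grhl2 and Esrp1 were nearly even across the clusters, Grhl2 between 0.707 and 0.973 and Esrp1 between 0.826 and 1.099, with overlapping intervals.

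**Figure D4:**
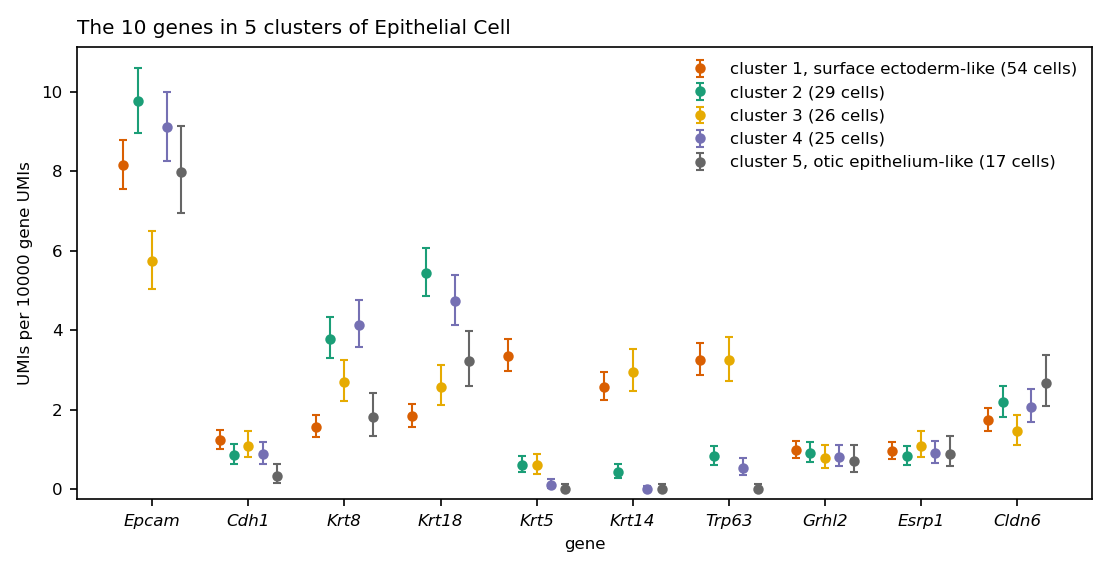
Level of each member (UMIs per 10000 gene UMIs) in the 5 clusters of Epithelial Cell that were formed without the members, with exact Poisson 95% intervals. Krt5 stands out in the surface ectoderm-like cluster, and Krt14 and Trp63 in that cluster and cluster 3. The Krt14 of cluster 3 came mostly from a few cells of F0_8 and F1_1. Krt8 and Krt18 of the pooled cells stand out in clusters 2 and 4, and Grhl2 and Esrp1 are level across all 5.

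A finer clustering parted the surface ectoderm-like cluster into 3 groups that differ in keratins. It kept 31 cells as surface ectoderm-like together with 3 cells of cluster 3, with Krt5 at 3.02, Krt14 at 3.02 and Trp63 at 3.61 beside Krt8 at 0.719. A group of 13 cells with apical ectodermal ridge markers, led by En1 and Fgf8 (the signalling rim of the limb bud), had Epcam at 12.2, Trp63 at 3.43, Krt5 at 1.997 and Krt8 at 0.819. A group of 10 cells led by genes that include Gabrp, 3830417A13Rik, Grhl3 and Arg1 had the highest level of 7 members: Krt5 at 6.53, Krt14 at 6.77, Krt8 at 5.91, Cldn6 at 5.06, Cdh1 at 3.42 and Esrp1 at 2.02, with Krt18 at 5.06. Trp63 was lower in it, at 1.24. These 10 cells came from F0_9 (4), F1_1 (5) and F1_mix (1), and F0_8 had 0. As a group they had both basal and simple keratins at high level, but these sums do not show that single cells held both at high level. The cells are too few to compare between embryos.

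Other genes of the epithelial programme followed the members unevenly. Of 11 other keratin genes, 5 had at least 100 UMIs in the deep types, and 3 of these were highest in Epithelial Cell: Krt15 at 1.25 UMIs per 10000, Krt19 at 0.756 and Krt7 at 0.705. Krt10, which marks differentiating epidermis in skin, was at 0.357 and no higher than in other types (0.481 in Neuroectoderm/Glia). Of 16 measured adherens and tight junction genes, 12 were highest there, among them Ctnnb1 (4.93, beta-catenin), Cldn7 (1.67) and Cdh3 (1.35, P-cadherin), while Ctnna1 (1.85) was slightly higher in Ependymal Cell. Of 7 desmosome and hemidesmosome genes, 5 were highest there, with Perp at 1.48, Dsp at 1.22 and Dsg2 at 0.527, and Itga6 (1.04) was higher in Hematoendothelial Progenitor/Endothelium.

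Of 6 other regulators, 3 were highest in Epithelial Cell, among them Klf5 (0.554) and Tead3 (0.376), and Tfap2a (0.612) was higher in CNS Neuron. Of 10 protease, polarity and trafficking genes, 8 were highest there, with Spint2 at 3.77, Spint1 at 0.659 and Rab25 at 0.597, while Ezr (1.83) was higher in Ependymal Cell. Of 8 mesenchymal counterparts, 0 were highest in Epithelial Cell. Vim (vimentin, the filament of mesenchymal cells) was at 1.94 against 7.55 in the other deep types, Cdh2 (N-cadherin) at 1.07 against 2.40 and Fn1 at 1.01 against 1.12. The Zeb repressors, singled out after their values were seen, were at 0.0892 against 1.92 (Zeb1) and 0.225 against 2.23 (Zeb2). Of the Snail repressors, Snai1 was at 0.0233 against 0.219, from 6 UMIs in Epithelial Cell, and Snai2 was at 0.302 against 0.245. The annotation rests on these genes too, so the counts describe it.

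Outside Epithelial Cell, small groups of cells held both Krt8 and Krt18, mostly without Epcam in the types where they were most numerous. In Ependymal Cell, 15 of 137 cells held both, 0 of them with Epcam, and these 15 held 92.1% of the Krt8 UMIs of the type. All 39 UMIs of T (brachyury, a notochord gene) in Ependymal Cell lay in 4 of these cells, and 46.8% of the UMIs of Shh lay among the 15. The other notochord markers did not follow: Foxa2 was lower in the 15 cells (0.137 against 0.361), Chrd had 1 UMI in them and Noto 0. In Mesodermal Progenitor, 7 of 496 cells held both keratins, 3 of them with Epcam, from F1_1 (4) and F1_mix (3), and they held all 37 UMIs of Upk3b and all 9 of Upk1b in that type, which are markers of mesothelium, the lining of body cavities. Wt1, a further mesothelial marker, was at 3.27 UMIs per 10000 in them and at 0.114 in the other cells of the type. In Gut Mesenchyme/Amniotic Mesoderm, 17 cells held both, 3 of them with Epcam, and held 31.1% of the Krt18 UMIs of the type, while a further 103 cells held Krt18 without Krt8. The 17 cells had Upk3b at 1.36 against 0.0250 in the others and Wt1 at 2.45 against 0.163. In Chondrocyte, 16 cells held both, 1 of them with Epcam, and had Upk3b at 0.486 against 0.00304 and Wt1 at 1.41 against 0.167. In CNS Neuron, 3 cells held both, and all 3 held Epcam. The mesothelial marker Msln had 0 UMIs in Mesodermal Progenitor, Gut Mesenchyme/Amniotic Mesoderm and Chondrocyte. The cells were chosen for these keratins, so nothing was tested.

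Whole sets of members occurred in very few cells elsewhere. In Gut Mesenchyme/Amniotic Mesoderm, 2 of 674 cells, both of F0_9, held 7 members each, with 14 and 25 Epcam UMIs, 0 of Krt5, Krt14 and Trp63, and 226 and 632 UMIs of Pth, the parathyroid hormone gene. In Myoblast/Cardiomyocyte, 1 of 644 cells, from F1_mix, held 9 members, including 9 Trp63 and 7 Krt5 UMIs, at a depth of 40687 gene UMIs against a median of 18369 for the type. In the shallow type labelled Hepatocyte, 5 of 543 cells held 5 to 7 members. That label went against its markers, since 5 liver genes had 6 UMIs in all 543 cells. Trp63 had 53 UMIs there, in 20 cells of which 4 held 47.2%. Outside mitochondrial genes its level was 0.539 UMIs per 10000 (0.404 to 0.705), against 0.0656 (0.0395 to 0.102) in droplets that belong to no suspension and hold 1 to 100 gene UMIs, and 0.111 (0.0879 to 0.137) in those holding 100 to 300. Trp63 had the highest ratio of the 10 members to the droplets of 1 to 100 gene UMIs, at 8.22. Esrp1 (6.63), Cdh1 (4.28), Grhl2 (4.05) and Krt14 (1.47) were also above them, Krt5 and Cldn6 were each at 0.982, and Krt18 (0.676), Epcam (0.610) and Krt8 (0.295) were below. To the droplets of 100 to 300 gene UMIs the ratio was 4.88 for Trp63, 3.46 for Grhl2, 2.89 for Esrp1, 2.63 for Cdh1, 2.10 for Krt14, 1.95 for Krt18, 1.59 for Krt5, 1.19 for Epcam, 0.871 for Cldn6 and 0.661 for Krt8. The side on which Krt18, Krt5 and Epcam fell thus depended on the droplets used.

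Between founder and F1 suspensions, no member passed the test in Epithelial Cell. By edgeR's quasi-likelihood test on summed UMIs, 0 of 10 members passed an adjusted p of 0.05, against 0% of all 8066 genes tested. At an unadjusted p under 0.05 there were 538 genes, of which 1 was a member, and DESeq2 called 6 genes and 0 members. On simulated data with these depths and spreads, the same test recovered 97.0% of 200 genes changed 4-fold. These genes were drawn from those with at least 100 UMIs, and smaller changes were not simulated. The recovery thus says nothing about differences of the size seen in the members. The member with the lowest p was Krt5, with founders 1.64-fold higher (log2 difference 0.72 ± 0.23 SE, edgeR adjusted p = 0.494). Krt14 was 1.53-fold higher in founders (log2 0.61 ± 0.38, edgeR adjusted p = 0.848). The other 8 members lay between −0.12 and 0.25 on the log2 scale. Single suspensions decided these calls: with edgeR, Krt5 passed without F0_8 (adjusted p = 0.0233) or F1_1 (0.0325), and Krt14 passed without F0_9 (0.000806) or F1_1 (0.000346). In these fits 1 suspension stands alone and is assumed to vary like the other group, and 78 to 119 genes passed. Of the 53 tested genes of the 6 lists, 0 passed, and the lowest adjusted p among them was 0.563, for Krt15.

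The balance of basal to simple keratins did not separate the generations either. The log2 ratio of Krt5 and Krt14 to Krt8 and Krt18 was −0.09 (F0_8), −1.36 (F0_9), −1.34 (F1_1) and −1.82 (F1_mix). F0_8 stood apart with nearly equal UMIs of both kinds, and F0_9 was lower than F1_1. The means were −0.72 ± 0.90 (SD, n = 2) and −1.58 ± 0.34 (SD, n = 2), and a two-sided exact permutation test gave p = 0.667, where 2 suspensions against 2 cannot give less than 0.333. The share of Epithelial Cell in the surface ectoderm-like cluster was 31.0% (F0_8), 38.2% (F0_9), 39.6% (F1_1) and 31.4% (F1_mix) (exact permutation p = 0.667, two-sided). Within that cluster the ratio was 2.32 (F0_8), 0.58 (F0_9), 0.50 (F1_1) and 0.93 (F1_mix). Outside it the ratio was −0.85 (F0_8), −3.24 (F0_9), −3.07 (F1_1) and −4.34 (F1_mix), and few cells carried the basal UMIs there. In F0_8 its 3 highest cells held 96 of 104 basal keratin UMIs, against 34 of 38 for F0_9, 57 of 58 for F1_1 and 11 of 14 for F1_mix.

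In the 8 other deep types with at least 20 cells in each suspension, 14 pairs of a member and a type passed the filter on low counts, and all 14 were Epcam, Krt8 or Krt18. Of these, 2 passed the test, both for Krt8 and lower in founders, where 0.827% of all 80363 gene and type pairs passed. Since 1 of the 2 passed the filter only through its F1 counts, nothing is read from this count. In Chondrocyte, Krt8 was at 0.0318 UMIs per 10000 (F0_8), 0.174 (F0_9), 0.486 (F1_1) and 0.426 (F1_mix), from 3, 16, 38 and 37 UMIs. The log2 difference was −2.15 ± 0.45 (SE, edgeR adjusted p = 0.0355), and the F1 level was 4.45-fold that of the founders (2.66 to 7.80 by counting error). In Mesodermal Progenitor, Krt8 had 2, 0, 21 and 16 UMIs in the same order, a ratio of 13.8 (3.55 to 118 by counting error, edgeR adjusted p = 0.0400). This is the gene that passed the filter only through its F1 counts, so that it had to differ to be tested. DESeq2 called neither, with an adjusted p of 0.560 for Mesodermal Progenitor and none given for Chondrocyte. The Chondrocyte call was lost without F0_8, among cells under 5% mitochondrial and without the filter on low counts. The Mesodermal Progenitor call was lost without F0_8, F0_9 or F1_1.

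Few cells carried both calls. The 4 highest of 36 Chondrocyte cells with Krt8 held 48.9% of its UMIs, and cells with both Krt8 and Krt18 numbered 0 (F0_8), 2 (F0_9), 8 (F1_1) and 6 (F1_mix). In Mesodermal Progenitor, 6 mesothelial markers summed to 0.454 (F0_8), 0.228 (F0_9), 0.917 (F1_1) and 0.728 (F1_mix) UMIs per 10000, with Msln at 0. Of their 595 UMIs, Aldh1a2 gave 361 outside the cells with both keratins and 23 in them. In Chondrocyte they summed to 0.881, 1.80, 0.947 and 1.40 in the same order, and 305 of their 445 UMIs were Aldh1a2 outside such cells. Both sums are mostly Aldh1a2, so they do not show whether the other markers moved with Krt8. The part of these markers in the Krt8 difference was not tested. Fewer cells with both keratins and less Krt8 RNA per cell cannot be told apart in the summed UMIs. Krt18 was lower in both founders than in both F1 suspensions in 4 of the 5 types where it was tested (Chondrocyte, Ependymal Cell, Gut Mesenchyme/Amniotic Mesoderm and Mesodermal Progenitor), and Krt8 in 3 of 5. Of all gene and type pairs 19.2% had this order. Epcam had the opposite order in 1 type, Gut Mesenchyme/Amniotic Mesoderm, and 21.8% of all pairs had it. In Ependymal Cell, 5 notochord markers summed to 1.43 (F0_8), 0.662 (F0_9), 6.13 (F1_1) and 2.15 (F1_mix), and the mesothelial markers to 0.0815, 0, 0.591 and 2.05 in the same order. Of the 462 notochord UMIs, Shh gave 168 in the cells with both keratins and 191 outside them, and Foxa2 gave 3 and 58. In Gut Mesenchyme/Amniotic Mesoderm the mesothelial markers summed to 0.928, 0.718, 1.003 and 1.45, and 588 of their 913 UMIs were Aldh1a2 outside the cells with both keratins. These sums were thus also lower in both founders, and the part of their genes in the Krt8 and Krt18 values was not tested. None of the Krt18 differences passed the edgeR test, with log2 differences from −0.48 to −1.58. Without the filter on low counts, Krt18 passed in Ependymal Cell (edgeR adjusted p = 0.0289), Gut Mesenchyme/Amniotic Mesoderm (0.0413) and Mesodermal Progenitor (0.00247), and Krt8 passed in Ependymal Cell (0.000160) and Gut Mesenchyme/Amniotic Mesoderm (0.00486). Krt14 in Gut Mesenchyme/Amniotic Mesoderm also passed without that filter (edgeR adjusted p = 0.000164), with all 20 of its UMIs in 6 cells of F1_mix. Without that filter 233 of 14697 genes passed in Ependymal Cell, 644 of 16104 in Gut Mesenchyme/Amniotic Mesoderm and 401 of 15892 in Mesodermal Progenitor. Without F1_mix, Krt18 passed in Ependymal Cell (edgeR adjusted p = 0.0145) and Mesodermal Progenitor (0.0336), and Krt8 in Ependymal Cell (0.000748).

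**Figure D5:**
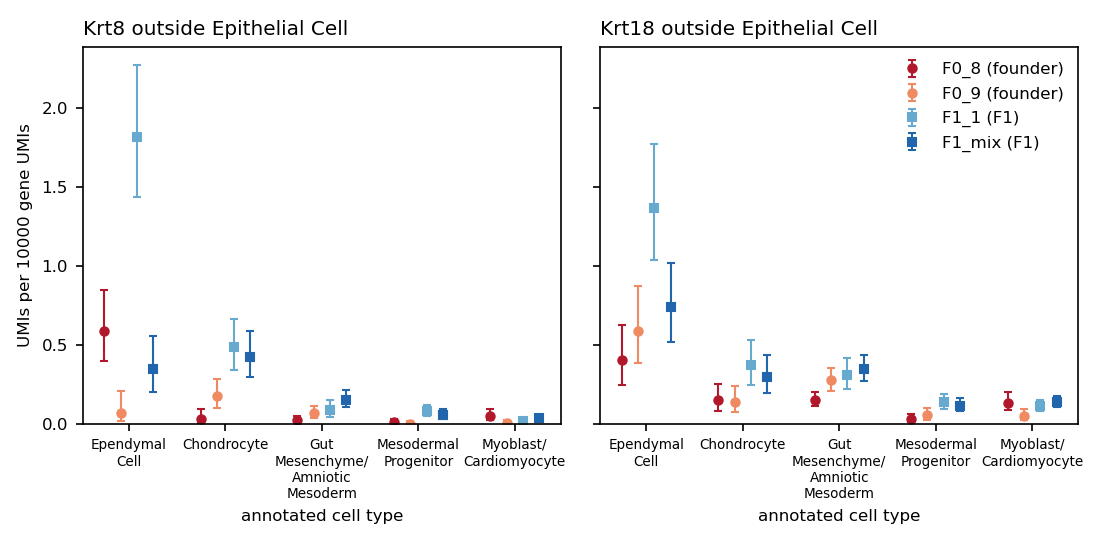
Level of Krt8 (left) and Krt18 (right) in the 5 types outside Epithelial Cell where they were tested (UMIs per 10000 gene UMIs), by suspension, with exact Poisson 95% intervals that cover counting error only. Founder values (circles) are low in Chondrocyte and Mesodermal Progenitor, where Krt8 passed the test. In Mesodermal Progenitor it did so after a filter that it passed only through its F1 counts. In Ependymal Cell the F1_1 value of Krt8 stands alone at 1.82. The summed notochord markers of that type, mostly Shh, were also highest in that suspension (6.13).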

How the data were processed

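Gene expression had been measured as 1 droplet library of 4 pooled suspensions (2 founder, 2 F1), grouped as the series description gives them. The deposited values are UMI counts that the authors made by alignment to GRCm38 plus EGFP (Cell Ranger; the headers name 7.2.0), and the authors' table gave each cell's suspension and type. The authors' methods name SoupX and DoubletFinder. The counts were used without correction for ambient RNA, and no doublet caller was rerun. The oligo library was not used. Of 6006 deposited barcodes, the 5678 in the table were kept. Columns of samples outside the series numbered 0.

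The members and lists were chosen with earlier results of these data known. Named were the 10 members, the 4 genes of each list with the highest level in Epithelial Cell, the 3 genes most like each of 5 members, and the 5 genes of highest fold per cluster among those at 1 UMI per 10000 or more. Some genes that this rule names are not reported here. Clustering used scanpy 1.11.5 (1000 variable genes, 20 principal components, 15 neighbours, Leiden resolution 0.5, members left out). A cluster was named when 1 marker list had its highest sum and fold, at least 3 markers with 10 UMIs, and at least 1 of the 10 leading genes and more than any other list, a rule set after seeing the data.

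UMIs summed per suspension were tested with edgeR 4.0.16 (TMM, filterByExpr, quasi-likelihood, Benjamini-Hochberg adjustment) after it was tested on simulated data (97.0% of 200 genes changed 4-fold recovered among 8066, 3.48% of calls false), with DESeq2 1.42.0 as an alternative. Since each embryo was sampled once, p-values measure the spread between these suspensions. Python 3.11.15 with scipy 1.17.1 gave the other values. Other alternatives were no filter, cells under 5% mitochondrial, each suspension left out, other clusterings, thinning and other weights.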

Additional observations from a re-analysis of the deposited data

Results flagged for a closer look

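All 10 members had UMIs in droplets that belong to no suspension and hold 1 to 100 gene UMIs. In UMIs per 10000 outside mitochondrial genes, Epcam stood at 0.383, Krt18 at 0.376 and Krt8 at 0.242. Krt14 stood at 0.0691, Trp63 at 0.0656, Cldn6 at 0.0622, Grhl2 at 0.0553, Krt5 at 0.0414, Cdh1 at 0.0380 and Esrp1 at 0.0276. These came from 8 to 111 UMIs of 2895282. They show detection only, since any gene with more than 3 UMIs exceeds the limit that a count of 0 allows, and there were no control samples.

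The log2 founder to F1 value of Epcam was 1.54 in Gut Mesenchyme/Amniotic Mesoderm, −0.18 in Myoblast/Cardiomyocyte and −0.38 in Neuronal Progenitor. Both founders were above both F1 suspensions in the first type and below both in the other two, where 21.8% of all gene and type pairs had both founders above both F1 suspensions and 19.2% had both below. The log2 founder to F1 value in Gut Mesenchyme/Amniotic Mesoderm exceeded that in Myoblast/Cardiomyocyte by 1.73 and that in Neuronal Progenitor by 1.93, and these differences were not tested. None of the 3 values passed the test on its own (edgeR adjusted p = 0.286, 0.886 and 0.713), but without the filter on low counts the first did (log2 1.54, edgeR adjusted p = 0.000418). In that setting 644 of 16104 genes of the type passed. The 2 cells of F0_9 with Pth held 14 and 25 of the 111 Epcam UMIs of Gut Mesenchyme/Amniotic Mesoderm.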

How the results depend on the processing

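The level of each member in Epithelial Cell moved by less than 1 SD between suspensions in 80 of 80 alternatives. Of 60 alternatives for shares of cells, 43 did the same and 17 moved, all of them thinned to 5000 UMIs (9 of 10) or counted at 2 or more UMIs (8 of 10). Genes called by edgeR between generations in Epithelial Cell numbered 0, but 6 with DESeq2, 157 without a filter on low counts, and 78 to 119 with each suspension left out. With a suspension left out, members called ranged from 0 to 2 and list genes from 0 to 1. Pairs of a member and another type called numbered 2 of 14 tested, but 0 of 14 with DESeq2 and 1 of 14 among cells under 5% mitochondrial. Without the filter they numbered 8 of 69. Over all genes, 644 of 16104 then passed in Gut Mesenchyme/Amniotic Mesoderm, 401 of 15892 in Mesodermal Progenitor and 233 of 14697 in Ependymal Cell, the types of these pairs. The number of pairs also changed with a suspension left out. The share of Epithelial Cell in surface ectoderm-like clusters was 22.05% at a resolution of 1. The founder minus F1 difference in that share, −0.89 percentage points, turned to 0.580 with 10 principal components and ranged from −4.99 to 3.21 with a suspension left out. The cause of these changes was not tested. No paired analysis was possible because the suspensions share no replicate numbers in the labels. Depth limits the shares of all 10 members, Krt5 included, which fell to 26.0% when thinned, and 1 embryo or pool per suspension limits every comparison of generations.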
